A study of Mus musculus with 6 samples.

Results

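The genes described here are 10 transcription factors and growth factor receptors that direct blood progenitors toward granulocytes and monocytes. They are the C/EBP factors Cebpa, Cebpb, Cebpd, Cebpe and Cebpg, the ETS factor Spi1 (the gene of PU.1), the interferon regulatory factor Irf8, and the receptor genes Csf1r, Csf2ra and Csf3r. They were chosen by symbol, and all 10 were found among the 23997 symbols of the deposited gene table. RNA-seq was performed on hematopoietic stem and progenitor cells (HSPCs), sorted from mouse bone marrow as Lin-Sca1+cKit+ (LSK) cells, to compare gene expression between wildtype mice and mice that lack the microRNA cluster MIRC11. There were 3 wildtype and 3 Mirc11-/- libraries, all from C57BL/6 mice of 6 to 8 weeks in normal hematopoiesis, with no other allele or agent given. Each library came from 1 RNA preparation of sorted cells pooled from 3 to 4 mice, so the spread between libraries is that between pools. The deletion is in the germline, so every cell of the animal lacked the cluster, and all 6 libraries carry the same batch label.

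C/EBP factors are basic leucine zipper proteins that bind DNA as dimers, and PU.1 and Irf8 bind composite sites with each other and with further partners. PU.1 is needed for all myeloid lineages, C/EBPα for the step to granulocyte-monocyte progenitors, C/EBPε for the late steps of neutrophil maturation, and Irf8 for monocytes and dendritic cells. Csf1r, Csf2ra and Csf3r encode the receptor of M-CSF, the α chain of the GM-CSF receptor and the receptor of G-CSF, and their genes are classical targets of PU.1 and C/EBP proteins.

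The libraries held 15772826 to 16250826 reads in genes for wildtype and 15029379 to 17051541 for Mirc11-/-. Values are normalized read counts, that is, reads of a gene divided by 1 size factor per library, with 1 read worth close to 1. The deletion was visible in the precursor entries of the cluster: Mir23a held 51 wildtype reads, Mir27a 54 and Mir24-2 73, and all 3 entries had 0 Mirc11-/- reads. With 3 reads over a genotype taken as the limit that a count of 0 allows, they were at least 17-fold, 18-fold and 24.3-fold lower. Of the sort markers, Kit stood at 6644 to 9950 normalized counts and Ly6a, the gene of Sca-1, at 374 to 683. The first principal component of all genes (31.3% of the variance) placed Mirc11-/- replicate 3 at -19.5, among the wildtype libraries at -13.5 to -26.2, while the other Mirc11-/- libraries stood at 54.6 and 25.5. Erythroid markers were higher in 2 Mirc11-/- libraries: the 15 markers summed to 54700 and 51334 normalized counts in Mirc11-/- replicates 1 and 2, 23065 in Mirc11-/- replicate 3, and 21823 to 31252 in wildtype. B cell markers, 8 in all, summed to 526 to 577 in wildtype and 454, 590 and 746 in Mirc11-/-, and the median marker was 1.05 and 1.08 above its 6-library mean on the log2 scale in Mirc11-/- replicates 2 and 3.

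The mature MIRC11 microRNAs come from a short stretch of chromosome 8 (GRCm38.p6, plus strand). They are shown from RefSeq with the seed, bases 2 to 8, in capitals, because a transcript of a myeloid factor could pair with them there.
miR-23a-3p (chr8:84208563-84208583): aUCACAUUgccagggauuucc
miR-27a-3p (chr8:84208727-84208747): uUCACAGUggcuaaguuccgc
miR-24-3p (chr8:84208875-84208896): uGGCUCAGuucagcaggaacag
The miR-27a-3p seed is shared by miR-27b-3p, and the whole of miR-24-3p is also encoded by Mir24-1, a gene outside the deleted cluster. The paralog cluster also encodes miR-23b, so this account of shared seeds may be incomplete. Precursor reads of the paralogs were few in either genotype, with 1 wildtype and 3 Mirc11-/- reads for Mir23b, 4 and 2 for Mir27b, and 3 and 3 for Mir24-1.

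Matches of 7 nucleotides to these seeds were found in the longest GENCODE 3′ UTR of 3 of the 10 genes. Of the 13562 tested genes with an annotated 3′ UTR, 42.6% held at least 1 such match. The 10 UTRs had a median length of 1060.5 bases, against 1285.5 for all genes. The matched transcripts were those of Cebpa and Csf1r, each with 2 matches to miR-24-3p, and Cebpd, with 1 to miR-23a-3p. Matches to these seeds were held by 20.6% and 16.9% of all genes, respectively. No myeloid factor matched the miR-27a-3p seed, which 18.4% of all genes did. Matches extended to 8 nucleotides by an A were found in 0 of the 10 genes and in 20.5% of all. The sites of the C/EBP factors are given with 11 bases on each side, the match in capitals, on the plus strand of GRCm38.
Cebpa, first miR-24-3p match (chr7:35120412-35120418): gggtggaacagCTGAGCCgtgaactggac
Cebpa, second miR-24-3p match (chr7:35120663-35120669): cctcccttcctCTGAGCCggactcggtgc
Cebpd, miR-23a-3p match (chr16:15890264-15890270): tgtgctctagtAATGTGActggaggtttt
Both Cebpa matches lie inside the RefSeq gene, which is a single exon at chr7:35119293-35121928. The Cebpd match lies beyond the RefSeq gene's end at chr16:15889545, in the longer 3′ UTR of the GENCODE transcript, and both Csf1r matches likewise lie beyond the end of the RefSeq gene. A match of letters does not show that a microRNA binds there, and no protein or microRNA level was measured.

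For none of the 10 genes did a difference between the genotypes pass the test against the spread of the libraries. At an adjusted p under 0.05 (limma, 3 libraries per genotype, Benjamini-Hochberg over 15662 genes) 0 of the 10 were called, against 0.00638% of all genes tested called higher and 0.0255% called lower. At an unadjusted p under 0.05, Csf2ra was higher and Csf3r was lower in Mirc11-/- HSPCs, that is, 1 of 10 genes in each direction, against 4.15% of all genes higher and 4.09% lower. For all 10 genes the values of the genotypes overlapped, whereas 12.9% of all genes did not overlap. Count tests on the recovered reads also gave 0 of 10 at an adjusted p under 0.05, against 0.0255% of all genes by edgeR's quasi-likelihood test and 0.798% by DESeq2. At an unadjusted p under 0.05 edgeR gave 2 of 10, against 8.66% of all genes, and DESeq2 0 of 10, against 7.74%. Weighting the libraries by limma's array weights, which gave Mirc11-/- replicate 2 a weight of 23.9 and no other library more than 1.83, called 7 of the 10 genes and 36.2% of all genes. The log2 fold changes, Mirc11-/- minus wildtype on the log2(value + 1) scale, lay between -0.24 and 0.20, with 5 positive, 5 negative and a median of -0.04, while the median of all genes tested was 0.0025.

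**Figure D1:**
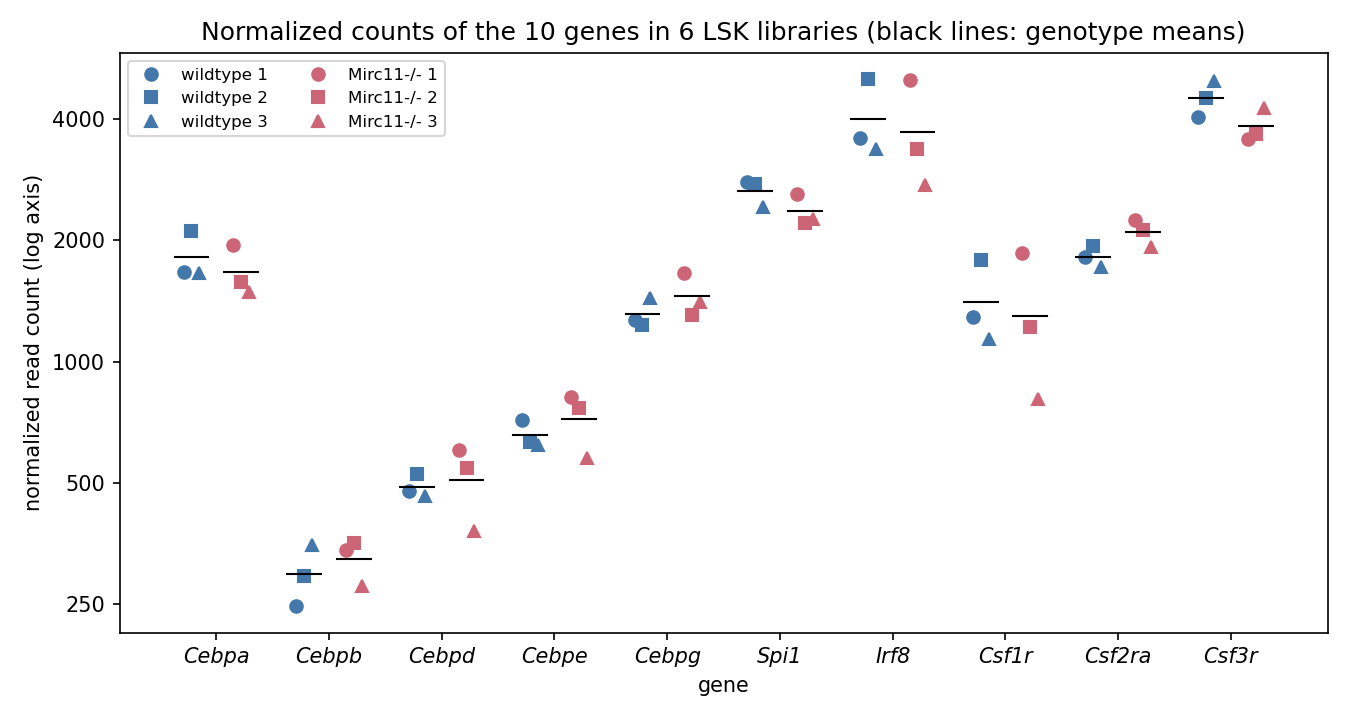
Normalized read count (log axis) of each of the 10 genes in the 3 wildtype (blue) and 3 Mirc11-/- (red) libraries, with the marker giving the replicate number and black lines the genotype means. The values of the genotypes overlap for every gene, and Irf8 and Csf1r are spread most widely within a genotype.

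Cebpa, on chromosome 7 (chr7:35119293-35121928, plus strand, GRCm38.p6), encodes C/EBPα, the factor needed for the step to granulocyte-monocyte progenitors. Cebpa stood at 1673, 2107 and 1659 normalized counts in wildtype replicates 1 to 3 and at 1941, 1580 and 1491 in the Mirc11-/- replicates. The highest and the lowest library belonged to different genotypes, with wildtype replicate 2 on top and Mirc11-/- replicate 3 at the bottom, but Mirc11-/- replicate 1 was above the other 2 wildtype libraries. The difference was -0.12 on the log2 scale (SE 0.13, 95% interval -0.41 to 0.17, adjusted p = 0.811 by limma). Its transcript is the one with both miR-24-3p matches shown above, and whether they bear on its level was not tested.

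Cebpb, on chromosome 2, encodes the factor of emergency granulopoiesis and of macrophage activation, and its mRNA comes from a single exon. Its normalized counts were 248, 294 and 352 in wildtype and 341, 354 and 278 in Mirc11-/- libraries. The wildtype range covered most of the Mirc11-/- range. The log2 difference was 0.13 (SE 0.16, 95% interval -0.24 to 0.50, adjusted p = 0.841 by limma).

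Cebpd, also an intronless gene, on chromosome 16, encodes a factor induced by cytokines in myeloid cells. Cebpd was at 477, 528 and 463 normalized counts in wildtype and at 602, 545 and 380 in Mirc11-/-. Both the highest and the lowest value belonged to Mirc11-/- libraries, and the highest was 1.58 times the lowest. The difference of 0.03 (SE 0.17, 95% interval -0.35 to 0.41, adjusted p = 0.974 by limma) was the smallest of the 10 genes, and it changed sign without wildtype replicate 3 (-0.0059), Mirc11-/- replicate 1 (-0.10) or Mirc11-/- replicate 2 (-0.03).

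Cebpe, on chromosome 14, encodes the factor that switches on secondary granule genes in neutrophil precursors. It was read at 717, 633 and 622 normalized counts in wildtype and 818, 766 and 578 in Mirc11-/- cells. Here too Mirc11-/- replicates 1 and 2 were the highest libraries and Mirc11-/- replicate 3 the lowest. The log2 difference was 0.12 (SE 0.14, 95% interval -0.20 to 0.44, adjusted p = 0.828 by limma).

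Cebpg lies 62.7 kb from Cebpa on chromosome 7, on the opposite strand. It encodes a C/EBP protein without the usual activation domains, which forms dimers with the other C/EBP proteins and with ATF4. Its counts were 1267, 1232 and 1441 in wildtype and 1661, 1305 and 1403 in Mirc11-/- libraries, and 1 library, Mirc11-/- replicate 1, stood above the rest. The log2 difference was 0.15 (SE 0.11, 95% interval -0.11 to 0.40, adjusted p = 0.731 by limma). The neighbours Cebpa and Cebpg differed in the sign of their change, but neither change passed the test.

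Spi1, on chromosome 2 (chr2:91082374-91115759, plus strand), encodes PU.1. It was read at 2783, 2764 and 2415 normalized counts in wildtype and at 2606, 2208 and 2261 in Mirc11-/-. Wildtype held the top 2 libraries and Mirc11-/- the bottom 2, with 1 library of each genotype between them in crossed order. The log2 difference of -0.17 (SE 0.10, 95% interval -0.39 to 0.05) had an unadjusted p of 0.107 and an adjusted p of 0.639 by limma, so a fall of Spi1 by more than 0.39 on the log2 scale lies outside the interval.

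Irf8, on chromosome 8 (chr8:120736358-120756694, plus strand), lies 36.5 Mb from the deleted cluster. Its normalized counts were 3580, 5009 and 3374 in wildtype and 4983, 3365 and 2747 in Mirc11-/- libraries. Wildtype replicate 2 and Mirc11-/- replicate 1 were nearly level at the top, 1.48 and 1.81 times the lowest library of their own genotype. The difference between the genotypes was -0.13 (SE 0.22, 95% interval -0.63 to 0.36, adjusted p = 0.889 by limma). It changed sign without wildtype replicate 2 (0.04) or without Mirc11-/- replicate 3 (0.06).

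Csf1r, the M-CSF receptor gene on chromosome 18, had the widest spread of the 10. It stood at 1289, 1787 and 1135 normalized counts in wildtype and at 1864, 1219 and 807 in Mirc11-/-, so the Mirc11-/- libraries alone covered a 2.31-fold range. The order of the libraries within each genotype was that of Irf8. The log2 difference was -0.17 (SE 0.28, 95% interval -0.80 to 0.46, adjusted p = 0.885 by limma), and it changed sign without wildtype replicate 2 (0.02) or Mirc11-/- replicate 3 (0.13). In the fit with the erythroid marker level as a covariate, which was -0.65 for Csf1r (adjusted p = 0.527) and -0.43 for Irf8 (adjusted p = 0.574), neither was called, and over the 19 alternatives other than array weights the adjusted p lay between 0.527 and 1 for Csf1r and between 0.574 and 1 for Irf8.

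Csf2ra, the α chain gene of the GM-CSF receptor on chromosome 19, was the most even of the 10 genes within a genotype. Its normalized counts were 1816, 1931 and 1719 in wildtype and 2249, 2114 and 1926 in Mirc11-/- cells. Only wildtype replicate 2 and Mirc11-/- replicate 3 overlapped, by 5 counts. The difference was 0.20 on the log2 scale (SE 0.09, 95% interval 0.0017 to 0.40), a ratio of 1.15, with an unadjusted p of 0.0484 and an adjusted p of 0.597 by limma.

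Csf3r, the G-CSF receptor gene on chromosome 4, went the opposite way in the mean. It was at 4045, 4511 and 4975 normalized counts in wildtype and at 3561, 3661 and 4259 in Mirc11-/-. Mirc11-/- replicate 3 stood above wildtype replicate 1, and the other 4 libraries were in the order of their genotypes. The log2 difference was -0.24 (SE 0.10, 95% interval -0.47 to -0.0020), a ratio of 0.849, with an unadjusted p of 0.0484 and an adjusted p of 0.597 by limma. With the erythroid marker level as a covariate it was -0.07, and for Csf2ra it was 0.10. Over the 19 alternatives other than array weights, the adjusted p lay between 0.118 and 0.998 for Csf3r and between 0.14 and 0.998 for Csf2ra.

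**Figure D2:**
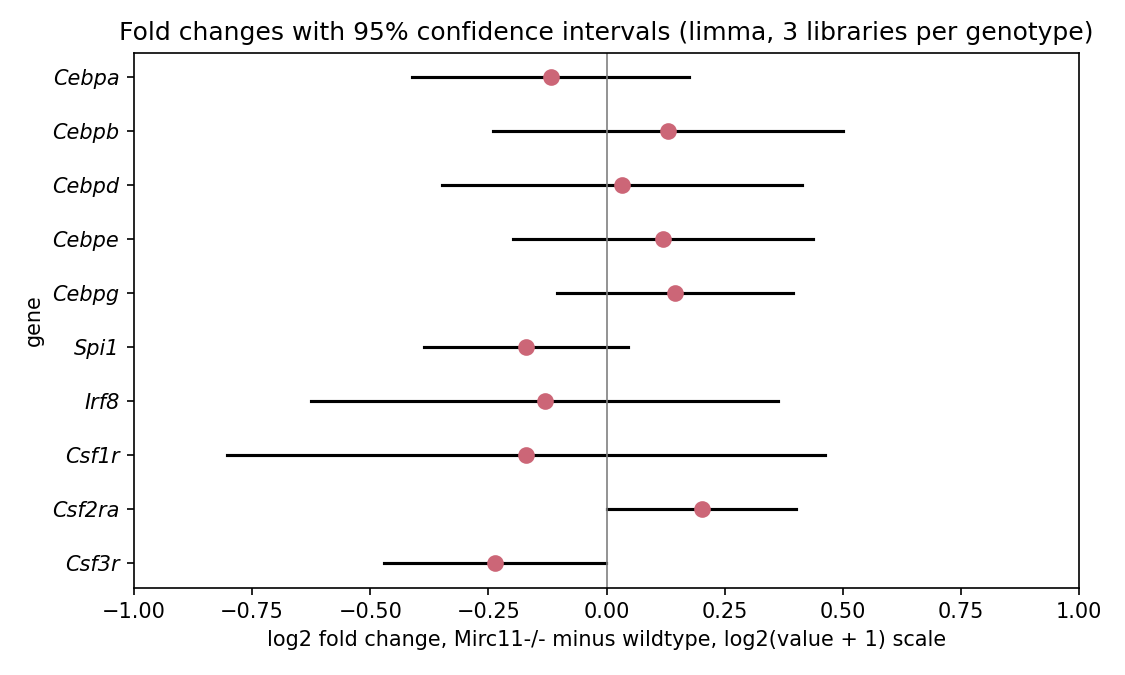
Log2 fold change of each of the 10 genes, Mirc11-/- minus wildtype on the log2(value + 1) scale, with 95% confidence intervals from limma. All points lie between -0.24 and 0.20, 8 of the 10 intervals include 0, and those of Csf2ra (from 0.0017) and Csf3r (to -0.0020) end next to it.

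Per kilobase of merged exons, which allows genes to be compared with each other, Csf3r (1155 normalized counts per kilobase in the mean of 6 libraries) and Spi1 (930) stood highest. Csf2ra (682), Cebpa (661), Cebpe (555) and Irf8 (545) followed, and each of these overlapped the next in its range over libraries. Cebpg (246), Csf1r (234) and Cebpb (207) formed a lower level, again with overlapping ranges. Cebpd (133) was the lowest, with no library above 161 per kilobase, below the lowest Cebpb library at 165. This place of Cebpd rests on its GENCODE length of 3746 bases, whereas the RefSeq gene spans 2260 bases. No level was computed with that shorter length, so the order of Cebpd and Cebpb is uncertain. By merged exons the ranges did not overlap between Spi1 and Csf2ra, between Irf8 and Cebpg, or between Cebpb and Cebpd. The places of Irf8 and Csf2ra also depend on the annotated length. Of the Irf8 transcripts 2 of 7, and of the Csf2ra transcripts 4 of 8, are retained-intron models. Without these the merged exons shorten from 7055 to 3672 and from 2871 to 1871 bases. Per kilobase of its longest coding transcript Irf8 stood at 1350, first in the order and overlapping Spi1 at 1232. Csf2ra stood at 1060 by that length, where its range overlapped those of Csf3r and Spi1 and no longer that of Cebpa. By merged exons and by the longest coding transcript, the lowest library of Csf3r, Spi1 and Irf8 was above the highest library of Csf1r, Cebpb and Cebpd.

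Within the genotypes the 10 genes differed in how far their libraries spread. The SD of the log2 values within genotypes was 0.49 for Csf1r and 0.38 for Irf8, and 97.5% and 94.0% of the 10553 genes with a mean of at least 100 normalized counts had a smaller one. Csf2ra (0.10) and Spi1 (0.12) were below the median of those genes (0.14), and the remaining 6 genes lay between 0.14 and 0.26. The spread of Irf8 and Csf1r had a common order: wildtype replicate 2 was the highest wildtype library and Mirc11-/- replicate 1 the highest Mirc11-/- library. This order was taken from Irf8 and Csf1r after their values were seen, so these genes hold it by definition. Of the other genes, Cebpa, Cebpd and Csf2ra held it, and Cebpb, Cebpe, Cebpg, Spi1 and Csf3r did not. It was held by 13.5% of all genes tested and by 16.3% of those with a mean of at least 100.

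The same order was held by 11 of the 12 genes listed as primary granule genes and, with Csf1r itself left out, by 11 of 20 monocyte and macrophage genes. The former list holds Mpo, Elane, Prtn3, Ctsg, Ms4a3, Serpinb1a, Ctsc, Nkg7, Gstm1, Srgn, Plac8 and Calr. Of 17 dendritic cell genes and 15 erythroid markers it was held by 0, and of 16 secondary granule genes other than Cebpe by 1. Mpo, the myeloperoxidase gene, was at 119658, 131744 and 105753 normalized counts in wildtype and 151669, 108076 and 84480 in Mirc11-/-. Elane, the neutrophil elastase gene, was at 27989, 28498 and 23433 in wildtype and 32430, 26368 and 20180 in Mirc11-/-. Among the Mirc11-/- libraries both were highest in replicate 1 and lowest in replicate 3, the order of Irf8 and Csf1r. In bulk RNA of sorted cells, fewer cells of a type and less RNA per cell cannot be told apart.

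The lineage antibodies in the stain for the sort were against B220, CD11b, CD3ε, Gr1 and Ter119, which mark mature B cells, myeloid cells, T cells, granulocytes and erythroid cells. RNA of genes of these lineages was still read, and it varied between the libraries in other orders. Secondary granule genes, among them targets of C/EBPε, had a median of 0.65 and 0.30 relative to the 6-library mean (log2) in Mirc11-/- replicates 2 and 3 and of -0.29 in replicate 1, where primary granule genes were highest. Stem and multipotent progenitor markers had a median of 0.36 in Mirc11-/- replicate 3 and -0.53 in replicate 1, and dendritic cell genes one of 0.27 and -0.44. Erythroid markers stood at 0.96 and 0.88 in Mirc11-/- replicates 1 and 2 and at -0.61 in replicate 3. The 8 mature monocyte and macrophage markers summed to 963 to 1352 normalized counts in wildtype and 977 to 1240 in Mirc11-/-, and C1qa and C1qb, which define tissue macrophages, were at 0 to 9.06. The part of these markers in the values of the 10 genes was not tested, apart from the fit with the erythroid level.

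**Figure D3:**
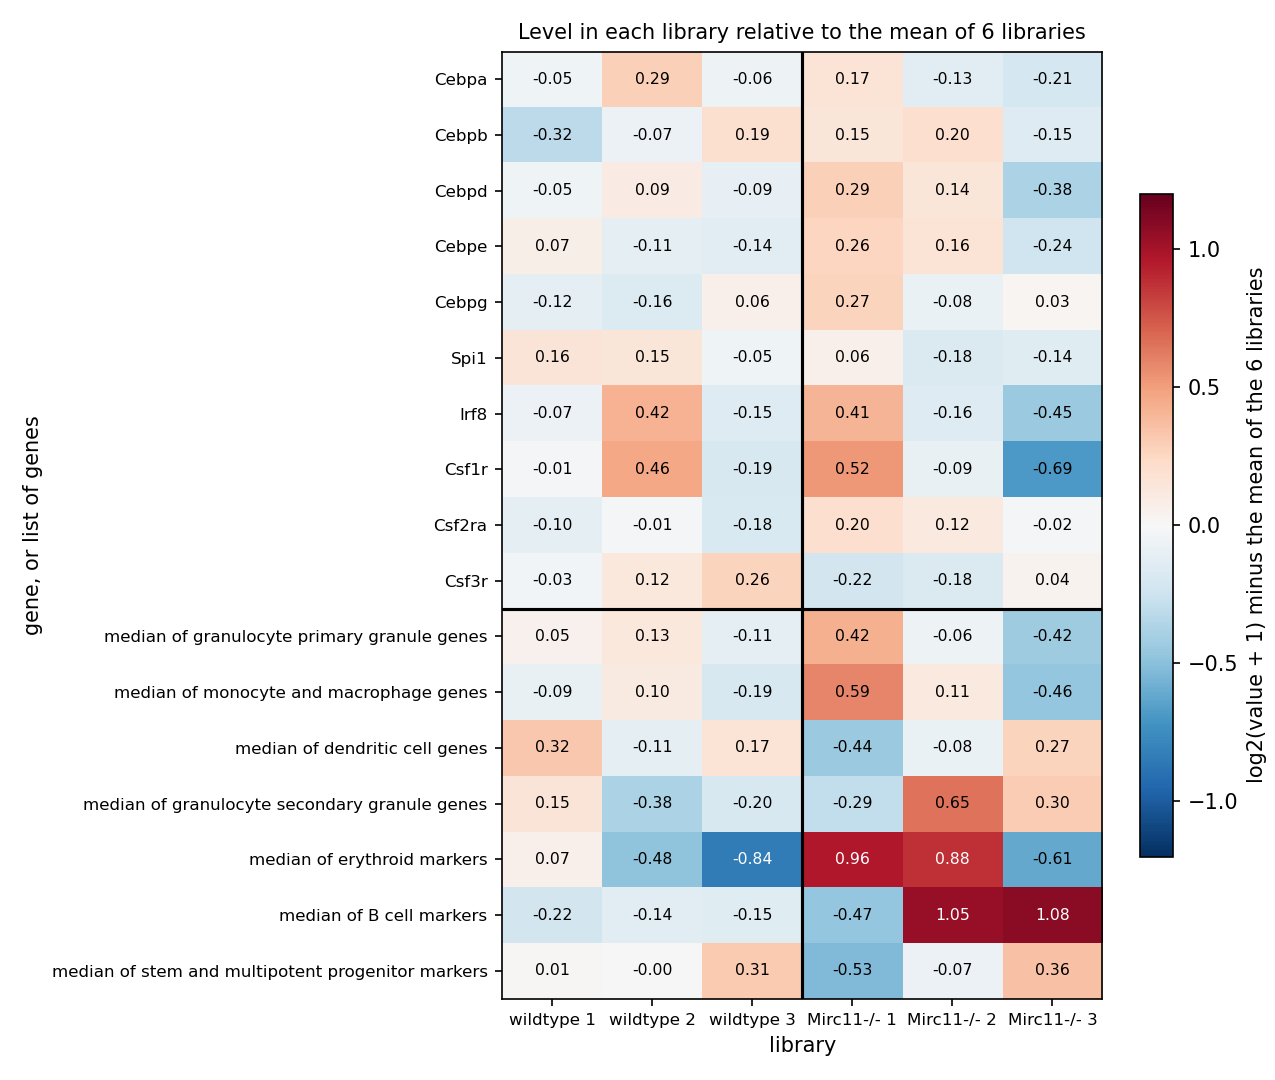
Level of each of the 10 genes (upper rows) and median level of the genes of 7 lists (lower rows) in each library, as log2(value + 1) minus the mean of the 6 libraries. Irf8 and Csf1r are high in wildtype 2 and Mirc11-/- 1 and low in Mirc11-/- 3, and the primary granule genes, the monocyte genes and the erythroid markers have the same highest and lowest Mirc11-/- library.

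Among 159 genes of the lists with a mean of at least 10 normalized counts, those closest in pattern were found by the root mean square difference of centred log2 values over the 6 libraries. Irf8 was closest to Cx3cr1 (0.05), Calr (0.08) and Mpo (0.11), and its own pattern had a root mean square of 0.32. Among the 10 genes its nearest was Csf1r (0.12), and Cx3cr1, a chemokine receptor gene of monocytes, was near both, at 201, 297 and 196 normalized counts in wildtype and 303, 186 and 153 in Mirc11-/-. Cebpa was closest to Zeb2 (0.08), Srgn (0.09) and Il6ra (0.09), with a root mean square of its own of 0.17. Spi1 was closest to Cst3 (0.07), Lyn (0.07) and Il3ra (0.07), with one of 0.13. These are descriptions over 6 libraries, and genes of 1 library share its depth and its mix of cells.

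The balance of pairs of lineage factors was taken within each library, as a difference of log2 values, which removes the scale of the library. PU.1 and GATA1, the erythroid master factor, repress each other's activity. Spi1 exceeded Gata1 by 1.78, 2.35 and 2.49 in wildtype and by 1.02, 0.83 and 1.98 in Mirc11-/- libraries. Gata1 itself was at 809, 540 and 428 normalized counts in wildtype and 1289, 1244 and 571 in Mirc11-/-. The mean difference in balance was -0.93, larger than the SD within either genotype (0.38 and 0.62), with 1 Mirc11-/- library inside the wildtype range (exact two-sided permutation test, p = 0.2, where 3 against 3 libraries cannot give less than 0.1, and 0.525 adjusted over 7 balances).

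The balance of Cebpa against Gata1 changed by -0.88 in the mean (exact permutation p = 0.2, n = 3 per genotype), and that against Gata2, the GATA factor of early progenitors, by -0.06 (exact permutation p = 1). The libraries with the lowest Spi1 and Cebpa against Gata1, Mirc11-/- replicates 1 and 2, were those with the highest sums of erythroid markers given above, of which Gata1 is 1. Irf8 against Cebpa, a balance between monocyte and granulocyte factors, moved by -0.01 (exact permutation p = 0.9, n = 3 per genotype). Csf1r against Csf3r moved by 0.07 (exact permutation p = 0.9), and its range over Mirc11-/- libraries, from -2.40 to -0.93, enclosed all 3 wildtype values. Cebpb and Cebpe against Cebpa moved by 0.25 and 0.24 (exact permutation p = 0.3 for both).

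**Figure D4:**
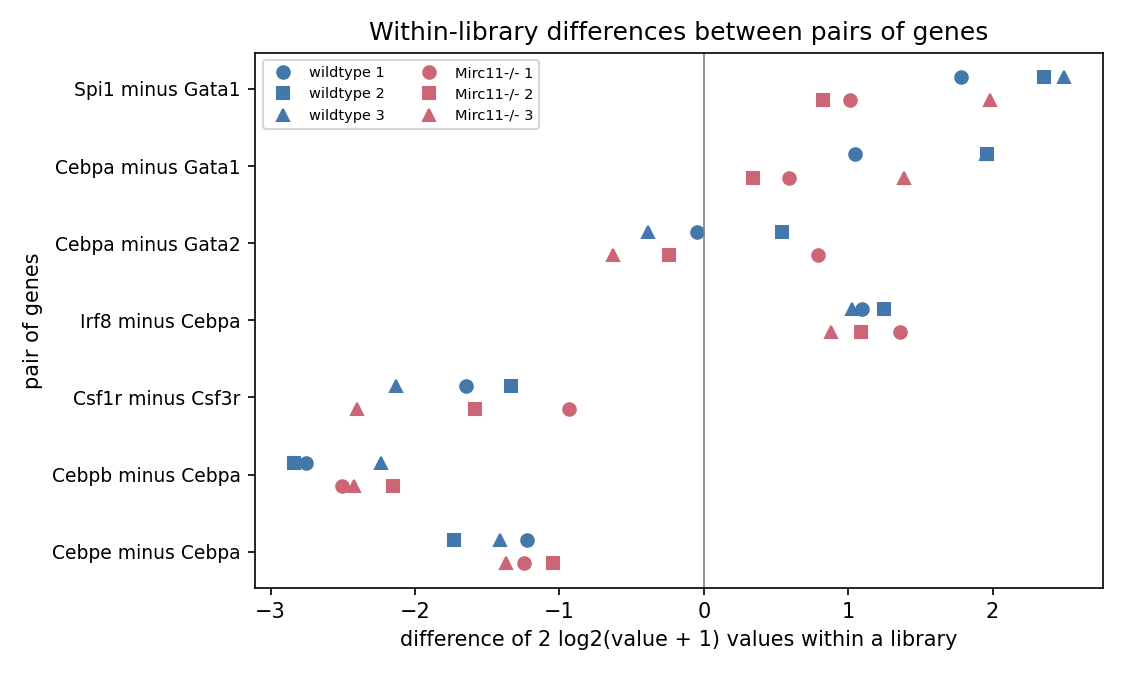
Difference of the log2(value + 1) values of 2 genes within each library, for 7 pairs, in wildtype (blue) and Mirc11-/- (red) libraries. Only the pairs with Gata1 show a mean difference larger than the SD of both genotypes, and there too Mirc11-/- 3 lies inside the wildtype range.

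The ligands of the receptors were scarcely transcribed in these cells, with the exception of M-CSF. Csf1 was read at 116, 159 and 173 normalized counts in wildtype and 116, 147 and 165 in Mirc11-/-, a log2 difference of -0.06 (adjusted p = 0.959 by limma). Csf2, the GM-CSF gene, had 0 wildtype and 4 Mirc11-/- reads in all, and Csf3, the G-CSF gene, 1 and 7. Il34, the other ligand of the M-CSF receptor, and Il3 had 0 reads in the 6 libraries, which allows up to 3 reads over each genotype as counting error. The shared β chain gene Csf2rb, which signals for the GM-CSF, IL-3 and IL-5 receptors, was at 1497, 1576 and 1474 normalized counts in wildtype and 1702, 1338 and 1245 in Mirc11-/-. Its close copy Csf2rb2 was at 211 to 316 and 203 to 230, and since reads can be shared between the copies, their split is uncertain. Of the 12 tested ligands and shared or sister receptor genes, 0 passed the adjusted test. At an unadjusted p under 0.05, 0 were higher and 1, Flt3, was lower, against 4.15% and 4.09% of all genes. The log2 difference of Flt3 was -0.49 (adjusted p = 0.597 by limma).

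Downstream of the receptors, 0 of 20 JAK-STAT, Src family and feedback genes passed the adjusted test, and their median log2 difference was -0.07. An unadjusted p under 0.05 was reached by 3 (1 higher, 2 lower), against 4.15% of all genes higher and 4.09% lower. The lower pair were the cytokine feedback inhibitors Socs3 and Socs1. Cish, a feedback inhibitor of the same family, overlapped between the genotypes (log2 difference -0.18, adjusted p = 0.878 by limma). Socs3, which limits G-CSF receptor signaling, was at 255, 383 and 399 normalized counts in wildtype and 197, 248 and 181 in Mirc11-/- (log2 difference -0.71, SE 0.20, adjusted p = 0.444 by limma). Socs1 was at 64.1, 54.6 and 81.1 and at 45.4, 42.6 and 31.2 (log2 difference -0.73, SE 0.26, adjusted p = 0.524 by limma). Neither Socs3 nor Socs1 overlapped between the genotypes. Of the 20 genes, 1 higher and 4 lower ones, these included, did not overlap, against 12.9% of all genes tested. Fgr, a Src family kinase of mature myeloid cells, was at 49.6 to 60.8 in wildtype and 72.4 to 97.4 in Mirc11-/- (log2 difference 0.69, SE 0.22, adjusted p = 0.485 by limma).

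Of 25 partners and regulators of C/EBP proteins and PU.1, 0 passed the adjusted test, while 1 was higher and 5 were lower at an unadjusted p under 0.05, against 4.15% and 4.09% of all genes, with a median of -0.14. DESeq2 called 4 of these 25 genes at an adjusted p under 0.05, all lower, against 0.798% of all genes. The other count test on the same reads, edgeR's quasi-likelihood test, called 0 of the 25, against 0.0255% of all genes. Trib1, which directs C/EBPα to degradation, had 225, 635 and 365 normalized counts in wildtype and 146, 164 and 85.5 in Mirc11-/-. Its log2 difference was -1.55 (SE 0.37, adjusted p = 0.419 by limma and 0.00121 by DESeq2 on recovered reads). Atf4, a stress factor that pairs with C/EBP proteins, was at 5784, 6182 and 7149 in wildtype and 4136, 4455 and 4651 in Mirc11-/- (log2 difference -0.53, SE 0.10, adjusted p = 0.322 by limma and 0.00179 by DESeq2). Jun, which acts with PU.1 on monocyte genes, was at 48504, 54738 and 65129 in wildtype and 18974, 27551 and 36709 in Mirc11-/- (log2 difference -1.06, SE 0.22, adjusted p = 0.405 by limma and 0.000763 by DESeq2). In these 3 genes every Mirc11-/- library was below every wildtype library. Over the 25, that held for 6 genes, and 1 gene was apart in the other direction, against 12.9% of all genes tested without overlap. Spib, the nearest relative of Spi1, was the 1 gene higher at an unadjusted p under 0.05, at 2.98 to 9.86 normalized counts in wildtype and 18.1 to 39.7 in Mirc11-/- (log2 difference 1.95, SE 0.48, adjusted p = 0.419 by limma), a level far below that of Spi1.

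Of 22 other myeloid transcription factors, 0 passed the adjusted test. The log2 difference was negative in 18 of the 22 (median -0.20), against 7752 of all 15662 genes tested. At an unadjusted p under 0.05, 0 were higher and 3 lower, against 4.15% and 4.09% of all genes. The 3 were Egr1, an immediate early gene, Klf4 (log2 difference -0.64), an inducer of monocyte genes, and Gfi1 (-0.30), a repressor that favours granulocytes. Gfi1 was at 1797, 1865 and 1587 normalized counts in wildtype and 1465, 1361 and 1424 in Mirc11-/- (SE 0.09, adjusted p = 0.451 by limma). Among 18 factors of the erythroid, megakaryocyte and lymphoid lineages, 5 higher and 0 lower genes had an unadjusted p under 0.05, against 4.15% and 4.09% of all genes, and 0 passed the adjusted test. The 5 were Gata1, Klf1, Gfi1b, Zfpm1 and Tal1, which act in erythroid cells and megakaryocytes, with log2 differences of 0.43 to 0.98. DESeq2 on recovered reads gave an adjusted p of 0.0313 for Tal1 and 0.0225 for Zfpm1 here, and of 0.0206 for Klf4 among the myeloid factors. By edgeR on the same reads, 0 genes of either list were called. In 3 of the 18, Tal1, Zfpm1 and Gfi1b, the genotypes did not overlap, against 12.9% of all genes tested. Without Mirc11-/- replicate 3, all 5 had an adjusted p under 0.05 by limma, against 2.75% of all genes tested. Of the 10 genes described here 0 did. The library left out was the Mirc11-/- one whose erythroid markers lay in the wildtype range. Of the 15 erythroid markers, 14 were called higher without it. The 5 genes had been picked by their p in the same libraries, so these calls are not separate support for them. Over the 9 other lists that fit called 10 genes higher and 6 lower. Among the lower were Satb1 (-0.69) and Tcf7 (-0.89) of these 18. The higher included the monocyte or secondary granule genes Ccr2, Cybb, Lyz2, Slpi and Mmp8.

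Genes of granulocyte, monocyte and dendritic cell stages were counted by list. Cebpe is itself in the secondary granule list and Csf1r in the monocyte list, and Lyz2 is in both lists. Of 12 primary granule genes 0 passed the adjusted or the unadjusted threshold, with a median of -0.08. Of 17 secondary granule genes 6 had an unadjusted p under 0.05, all of them higher in Mirc11-/- (median 0.28), against 4.15% of all genes. Of the 17, 0 passed the adjusted test, by limma or by edgeR. Mmp9, a gelatinase gene, was at 13.9 to 38.5 normalized counts in wildtype and 56.3 to 86.1 in Mirc11-/- (log2 difference 1.64, SE 0.39, adjusted p = 0.419 by limma and 0.0352 by DESeq2), while Camp and Ngp, far more abundant, were lowest in Mirc11-/- replicate 1, at 289 and 776, and highest in replicate 2, at 2249 and 3735.

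Of 21 monocyte and macrophage genes an unadjusted p under 0.05 was reached by 2 that were higher and 3 that were lower (median 0.11), and 0 passed the adjusted test. Itgam, the gene of CD11b, was at 1574, 1540 and 1653 normalized counts in wildtype and 1263, 1318 and 1398 in Mirc11-/- (log2 difference -0.26, SE 0.08, adjusted p = 0.475 by limma), and Lyz2, the lysozyme gene, at 1791 to 2096 and 2027 to 3949 (0.56, SE 0.20, adjusted p = 0.532 by limma). CD11b is among the lineage proteins stained for the sort. Of 17 dendritic cell genes 1 was higher, Spib, and 2 were lower, Bst2 (-0.44) and Flt3 (-0.49), with a median of -0.24, and 0 passed the adjusted test. These counts stood beside 4.15% and 4.09% of all genes.

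**Figure D5:**
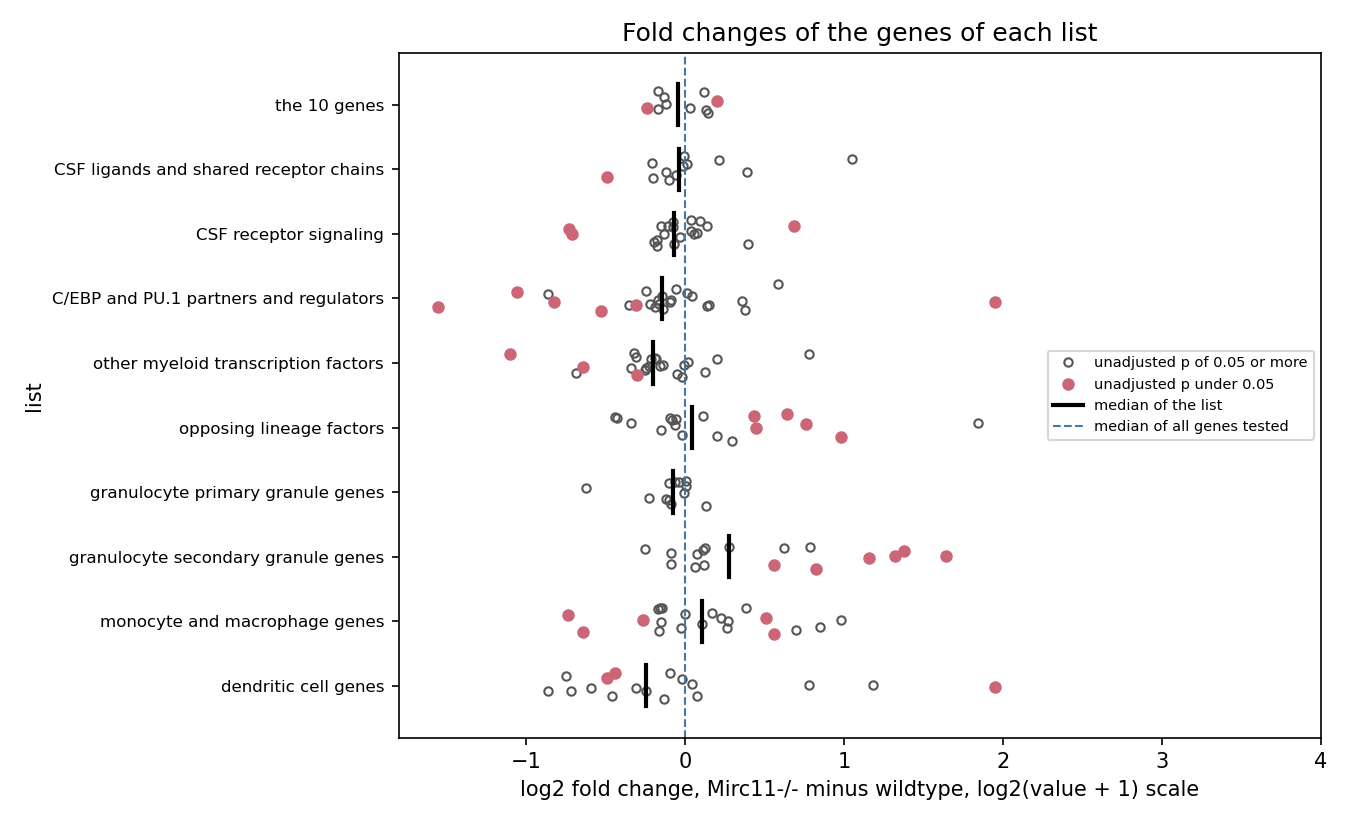
Log2 fold change of each tested gene of the 10 genes and of 9 lists, Mirc11-/- minus wildtype on the log2(value + 1) scale, with filled points for an unadjusted p under 0.05, bars for the list medians and a dashed line for the median of all genes. The 10 genes are within -0.24 and 0.20, while partners such as Trib1 (-1.55) and Jun (-1.06) and late granule genes such as Mmp9 (1.64) lie far outside that range.

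Promoters of 6 of the 10 genes were read from RefSeq (GRCm38.p6, 250 bases before to 50 after the start site, 7 windows, since Irf8 has 2 start sites). Spi1, Cebpd, Cebpe and Csf1r had none. Motifs were searched on both strands. The C/EBP motif TTGCNNAA was in 0 of the 7 windows and in 10.8% of 32851 promoters, and its palindrome TTGCGCAA in 0 and 0.183%. The PU.1 motif AGAGGAAG was in 2 windows, those of Csf3r and Csf2ra, and in 4.55% of all promoters. A second PU.1 motif, GAGGAAGT, which overlaps the first in its letters, was in 0 windows and 3.20% of promoters. The bare ETS core GGAA, contained in both, was in all 7 windows and in 96.0% of promoters. The IRF motif GAAANNGAA was in the Csf3r window and 8.56% of promoters, and the AP-1 motif TGACTCA (on the other strand TGAGTCA) in 0 windows and 5.2% of promoters. The receptor windows are shown because these genes had the smallest p of the 10 and differed in sign, with the PU.1 and IRF matches in capitals, each window read 5′ to 3′ on the gene's strand.
Csf3r (chr4:126024409-126024708, plus strand): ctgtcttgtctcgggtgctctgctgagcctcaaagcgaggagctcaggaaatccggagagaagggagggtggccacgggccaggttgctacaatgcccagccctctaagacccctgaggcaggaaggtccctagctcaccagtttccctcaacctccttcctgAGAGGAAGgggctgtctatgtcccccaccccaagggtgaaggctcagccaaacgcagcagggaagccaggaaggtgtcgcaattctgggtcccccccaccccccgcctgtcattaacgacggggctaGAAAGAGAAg
Csf2ra (chr19:61228369-61228668, minus strand): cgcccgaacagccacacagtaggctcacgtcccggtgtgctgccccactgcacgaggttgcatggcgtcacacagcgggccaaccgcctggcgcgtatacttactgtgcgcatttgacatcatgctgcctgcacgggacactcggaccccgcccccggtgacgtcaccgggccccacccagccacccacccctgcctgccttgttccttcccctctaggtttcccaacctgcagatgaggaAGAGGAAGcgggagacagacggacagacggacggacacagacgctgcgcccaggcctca
The PU.1 letters begin 87 bases before the Csf3r start site and 9 bases before that of Csf2ra. A match of letters does not show binding, and its part in the level of either gene was not tested.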

How the data were processed

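RNA-seq of LSK cells from 3 wildtype and 3 Mirc11-/- pools was used, grouped by the submitters' labels. The methods name STAR, Cufflinks and DE-seq, with the human build hg19, and the submitters' processing notes name the mouse build mm10. No source used here gives their versions. The deposited signal of a gene is its read count over a library-wide size factor (100% of values were whole reads within 0.001), not FPKM as the plan assumed, so tests on recovered read counts served as alternatives.

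The 15662 genes whose mean reached 1 were compared by limma 3.58.1 with a mean-variance trend on log2(value + 1), two-sided, and p-values were adjusted by Benjamini-Hochberg (threshold 0.05). Alternatives were edgeR 4.0.16 and DESeq2 1.42.0 (R 4.3.3), other pseudocounts, filters and scalings, array weights, a replicate block, an erythroid covariate and leaving out each library. In simulated data of 15452 genes, 4% of 1.25-fold, 32% of 1.5-fold, 70% of 2-fold and 96% of 4-fold changes were recovered. The test made 111 calls there, of which 10 were false. Genes were simulated independently, without library effects shared by genes, and changes were set only in genes with a mean of at least 10. The shares recovered in the real libraries may therefore be lower. Lengths came from merged GENCODE vM21 exons (GRCm38) in place of RefSeq exons, seed matches from its longest 3′ UTRs, which 86.6% of genes tested had, and promoters and microRNAs from RefSeq (GRCm38.p6). No label says that a replicate number is shared between the genotypes.

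The 10 genes, the lists and the tests were chosen with earlier results of these data known. Named were the 10 genes, the genes with the smallest p of each list, up to 4, the ligands and β chains, Gata1, Gata2 and the nearest patterns. Mpo, Elane, Camp, Ngp, C1qa, C1qb and the precursor entries were added after their values were seen. Listed genes Id2, Ly6g and Trac were not used here.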

Additional observations from a re-analysis of the deposited data

How the results depend on the processing

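The 10 genes were not called under any alternative except array weights, which called 3 higher and 4 lower together with 2868 and 2809 of all genes. Those weights gave Mirc11-/- replicate 2 a weight of 23.9, against 0.254 to 1.83 for the others. The counts of all genes called, 1 higher and 4 lower, became 8 higher without a filter, 2 higher and 2 lower without a trend, and 38 and 87 by DESeq2. Leaving out 1 library gave 1 to 256 higher and 0 to 174 lower, the most without Mirc11-/- replicate 3. Of the genes of the 9 other lists, of which 0 were called, array weights called 38 higher and 51 lower. DESeq2 called 3 and 5, edgeR 0 and 0, and leaving out 1 library 0 to 10 and 0 to 6. Same-numbered libraries correlated at 0.143, -0.198 and 0.196 in their deviations, so the numbers were not taken as pairs. With the replicate block, 3 genes were called higher and 27 lower, among them 2 of the lists (Atf4 and Jun), and 0 of the 10.

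With the erythroid covariate the log2 differences of Cebpd (-0.26) and Cebpe (-0.15) turned negative. At an unadjusted p under 0.05 by limma, that fit gave 2 of the 10, Csf1r (-0.65) and Spi1 (-0.26), against 8.79% of all genes. Csf2ra and Csf3r were no longer under 0.05, and 0 of the 10 passed the adjusted test. Leaving out 1 library gave -0.10 to 0.23 for Cebpd, -0.37 to 0.061 for Irf8 and -0.47 to 0.13 for Csf1r, and, for the balances, -0.47 to 0.24 for Cebpa against Gata2, -0.14 to 0.10 for Irf8 against Cebpa and -0.29 to 0.45 for Csf1r against Csf3r. Per kilobase of the longest transcript, Cebpg stood at 294, Spi1 at 1232, Irf8 at 1108 and Csf2ra at 860. Per kilobase of the longest coding transcript, an alternative chosen after seeing the data, Cebpg and Spi1 were at the same values, Irf8 at 1350 and Csf2ra at 1060. Seed matches of 8 nucleotides were in 0 of the 10 genes. The causes of these changes were not tested.

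With 3 libraries per genotype, small changes were seldom recovered in simulated data, and the intervals of Irf8 and Csf1r include changes of 0.648 to 1.29-fold and 0.573 to 1.38-fold.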

Other observations

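Other genes of the lists had patterns close to those of the C/EBP factors and receptors not used in the comparisons above. Cebpg was closest to Irf5 (root mean square difference of 0.04 on the log2 scale over the 6 libraries), Cebpb to Ddit3 (0.10), Cebpd to Elane (0.09) and Cebpe to Rfwd2 (0.09), the gene of the ubiquitin ligase COP1 that acts with Tribbles proteins on C/EBPα. Csf3r was closest to Inpp5d (0.04), Csf2ra to Shc1 (0.07) and Csf1r to Ms4a6c (0.10). These genes were the nearest of 159 and were named for that reason, with no test. Mast cell and basophil markers, 8 in all, summed to 1808 to 1967 normalized counts in wildtype and to 3520, 2119 and 1621 in Mirc11-/- replicates 1 to 3. Megakaryocyte markers summed to 2659 to 3989 in wildtype and 3031 to 4585 in Mirc11-/-, and T and NK cell markers to 94.3 to 121 and 64.3 to 147.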
